A study of Homo sapiens with 80 samples.

Results

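The 5 annotated 7SL RNA genes RN7SL1, RN7SL2, RN7SL3, RN7SL4P and RN7SL5P and the 7SK RNA gene RN7SK were followed in 80 RNA-seq libraries of human Jurkat T cells exposed to hypergravity, to a bench centrifuge spin or to heat. The genes were found by symbol and are 6 of the 60663 rows of the gene count table. RN7SL1 took more counts than any other gene in all 80 libraries, between 1.35% and 8.76% of a library's counts outside the 1 library that is treated apart. After centrifugation at 300 g, the 4 7SL rows that held counts were all downregulated, RN7SL1 by 2.57-fold to 3.05-fold. In these comparisons 40.1% to 40.6% of all genes were called lower, and 4.06% to 4.86% with a log2 fold change under -1, as all 4 rows were. With a GC correction RN7SL1 lay at log2 values of -0.75 to -1.04 relative to the median of all genes. During 9 g the RN7SL1 row changed little up to 9 min, whereas RN7SL4P was called lower at 75 s and at 5, 7, 9 and 60 min, furthest at 7 and 9 min. RN7SL3 and RN7SL5P were called lower at 75 s, 7 min and 9 min. With 3 surrogate variables none of the calls at 75 s, 5 min and 7 min was made, nor that of RN7SL5P at 9 min. RN7SL1 was called higher at 15 min, but not once GC content or exon length was corrected for. The call was also not made with 3 surrogate variables, without library 80, or with the library that is treated apart kept in. RN7SK and RN7SL2 held no count in any library, so neither gene could be followed in this table. The genes were chosen by symbol after the count shares and fold changes of these libraries had been seen, so their levels are a description without a test, and the edgeR calls on these rows, adjusted over all genes tested, are no independent support for the pattern they were picked for.

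7SL RNA is the RNA backbone of the signal recognition particle (SRP), which binds signal peptides as they leave the ribosome and brings translating ribosomes to the protein channel of the endoplasmic reticulum (ER). 7SK RNA is a nuclear RNA that holds the elongation kinase P-TEFb (CDK9 with a cyclin T) in an inactive complex together with HEXIM, LARP7 and MEPCE. Both RNAs are transcribed by RNA polymerase III (Pol III), are abundant and carry no poly(A) tail made by the mRNA pathway, so they are read in ribosomal RNA-depleted libraries of the kind sequenced here. The human genome also holds many truncated copies of both genes, annotated as pseudogenes.

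Jurkat clone E6-1, an established human T cell leukemia line grown in RPMI medium with fetal calf serum, was used throughout. In the 9 g experiment, cells in serological pipettes were spun in a pipette centrifuge at 9 g, with 6 libraries for each exposure time. The exposure lasted 20 or 75 s in the groups hypg20s and hypg75s, and 3, 5, 7, 9, 15 or 60 min in the groups hypg3 to hypg60, which are numbered by minutes. Their controls stood in a pipette at 1 g for 15 min (Ctrl, n = 6), or for 60 min in the case of hypg60 (Ctrl60, n = 6). Cells of the groups with a shorter exposure than hypg15 first stood unspun in the pipette, so their total time in it equalled that of Ctrl. In the other experiment, a 5 min spin at 300 g was followed by lysis after 1 min (wait1min), 4 min (wait4min) or 15 min (wait15min). Heat-shocked cells (heat, 42 °C) and the control group CtrlA completed this experiment, with 4 libraries per group. The column names of the count table differ from these titles in 3 groups: Ctrl60 is named there as a control plus HEPES, wait1min as instant and wait4min as 1 min. The titles were followed, so the waiting times and the handling of Ctrl60 rest on them. All groups are the same line without a genetic change, and the labels do not say whether the libraries of a group came from separate cultures, so the p-values measure only the spread between these libraries. The 7 groups from hypg20s to hypg15 share the Ctrl libraries, and the 3 waiting times and heat share the CtrlA libraries. The libraries of hypg3 and hypg15 are numbered 69 to 80, after those of the other experiment and apart from the remaining 9 g groups. The labels give no reason for this numbering.

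Library totals ran from 17205655 to 41893490 assigned read pairs at 9 g and from 24417717 to 41220541 in the other experiment. With such depth, the 95% Wilson interval of an RN7SL1 share was at most 0.0279 percentage points wide, which covers counting error only. One library of hypg15, number 75, held 0 counts on chromosomes 4 to 9, X, Y and MT, and its last row of chromosome 3 with a count was RN7SL4P. It was left out of the hypg15 values and tests unless stated, which leaves n = 5. The 10 T-lineage markers checked were present in every library, from 3.10 CPM (a gene's count over the library total, on the usual scale) for LAT at its lowest upwards. Of the 10 B cell, myeloid and erythroid markers, 9 stayed at or below 0.724 CPM, and CD79A lay at a median of 58.6 CPM. In bulk libraries, fewer cells of a type and less RNA per cell cannot be told apart.

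RN7SL1 (ENSG00000276168) is a single exon of 299 bases at chr14:49586580-49586878 on the plus strand of GRCh38, in a region where RPS29 lies on the opposite strand. RN7SL2 (ENSG00000274012, 300 bases, chr14:49862550-49862849) and RN7SL3 (ENSG00000278771, 299 bases, chr14:49853616-49853914) lie close to each other on the minus strand of the same chromosome. RN7SL4P (ENSG00000263740, 295 bases, chr3:15738515-15738809) and RN7SL5P (ENSG00000265735, 321 bases, chr9:9442060-9442380) are annotated as pseudogenes on the plus strand, opposite ANKRD28 and PTPRD. RN7SK (ENSG00000283293) spans 328 bases at chr6:52995621-52995948 on the plus strand. All 6 are single-exon noncoding genes with a GC content of 57.6% to 62.9%.

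How much sequence the 7SL rows share decides what each row can count, and it was computed from the GENCODE 29 transcripts on GRCh38. RN7SL2 was 98.3% identical to RN7SL1 and RN7SL3 97.7%. The pseudogene rows were further away, with an identity of 85.8% for RN7SL4P and 80.1% for RN7SL5P, and both departed from RN7SL1 mostly after base 232. Of the 200 windows of 100 bases in RN7SL1, 149 occurred unchanged in another of these genes, 106 of them in RN7SL2. In RN7SL3, 24 of 200 windows were shared, in RN7SL4P 93 of 196 and in RN7SL5P 110 of 222. The authors' counting dropped read pairs that align to several places, so the count of each row covers only pairs that the aligner placed at 1 locus, and how much of the 7SL RNA of a cell this leaves out, or moves between paralogs, was not tested.

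RN7SK and RN7SL2 were at 0 in 80 of 80 libraries. All bases of RN7SK lie within the exon of a gene with another identifier on the same strand (ENSG00000202198, bases 52995620 to 52995950), which was also at 0 throughout. All bases of RN7SL2 lie within an exon of ENSG00000282885 (bases 49861176 to 49864326), which held 25 to 75 counts per library. Read pairs in 2 genes at once were not assigned by the counting the file header describes. Across the table, 1132 of the 1304 genes whose exons were fully covered by another gene on the same strand held 0 counts in all libraries (86.81%). The same held for 758 of 5409 genes covered in part (14.01%) and for 16449 of 53950 genes not covered at all (30.49%). RMRP and RPPH1, the RNA subunits of the ribonucleases MRP and P, were also fully covered and at 0. A count of 0 allows up to 3 counts, or 0.0716 to 0.174 CPM depending on the library, but this limit holds for assignable pairs and says nothing of the level of 7SK RNA in the cells.

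RN7SL1 held between 335506 and 2552438 counts per library (median 1670176), first of all genes by count and also by count per length in 80 of 80 libraries. It took 2.32 to 9.64 times the counts of the next gene. RN7SL4P followed with 462 to 3110 counts (median 2087), then RN7SL3 with 162 to 1027 (median 779) and RN7SL5P with 0 to 200 (median 138), where only library 75 was at 0. RN7SL1 made up 99.76% to 99.90% of the counts of the 7SL rows, so their sum followed RN7SL1. As CPM per kilobase of exon, the Ctrl mean was 180143 ± 11015 (SD, n = 6) for RN7SL1, 285 ± 14.5 for RN7SL4P, 93.8 ± 4.78 for RN7SL3 and 16.8 ± 0.939 for RN7SL5P. The ranges of the 4 rows did not meet in this group.

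The RN7SL1 share was 5.39% ± 0.329 (SD, n = 6) in Ctrl, with a lowest value of 4.92%, a median of 5.36% and a highest of 5.89%. The 6 groups from 20 s to 9 min at 9 g lay at means of 5.22% (hypg75s) to 5.72% (hypg3) with SDs of 0.287 to 0.526, and every one overlapped Ctrl. At 15 min the 5 libraries were at 6.27%, 6.32%, 7.09%, 6.39% and 8.76%, all above the highest Ctrl library. Library 75 of the same group was at 9.65%, and with it the mean rose from 6.97% ± 1.06 (SD, n = 5) to 7.41% ± 1.45 (n = 6). Counted only over the chromosomes that library 75 covers in full, its share was 9.73%, against 9.31% to 12.8% in the other 5 libraries. After 60 min the share spread from 3.67% to 7.11% (median 5.62%, mean 5.45% ± 1.16, n = 6), around the Ctrl60 libraries at 4.95% to 5.74% (median 5.61%, mean 5.52% ± 0.291, n = 6).

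In the other experiment the CtrlA libraries gave RN7SL1 3.63%, 3.96%, 3.73% and 3.91% of their counts. After 300 g the shares were 1.72%, 1.83%, 1.73% and 1.74% at wait1min, 1.55%, 1.54%, 1.48% and 1.45% at wait4min, and 1.55%, 1.59%, 1.49% and 1.35% at wait15min. All 12 spun libraries lay below all 4 controls. The heat libraries were at 3.55%, 3.48%, 3.74% and 3.76%, of which the first 2 lay below all CtrlA libraries and the others within their range. In ascending order of the mean share, wait15min and wait4min overlapped, wait1min lay above both, and heat and CtrlA overlapped. The groups of the 9 g experiment followed, of which hypg60 reached down into the range of CtrlA, those from hypg75s to hypg3 overlapped their neighbours, and hypg15 was highest. The Ctrl and CtrlA libraries come from separate experiments with different handling, so the difference between them cannot be told apart from the experiment.

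**Figure D1:**
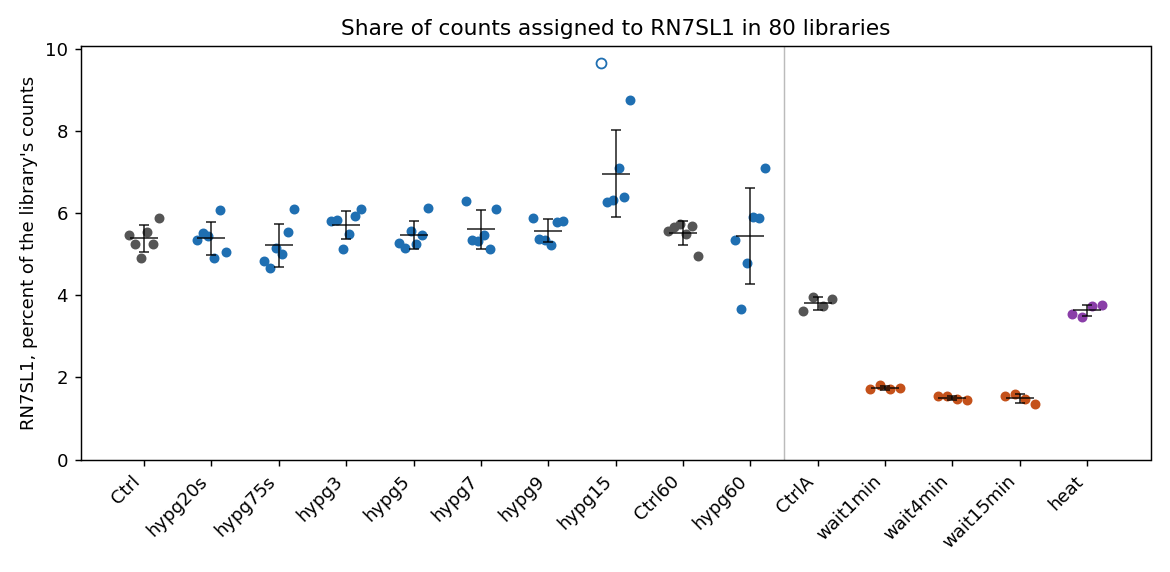
Share of each library's counts assigned to RN7SL1 (y axis, percent) in the 15 groups (x axis), with the mean and SD as bars, library 75 as an open circle outside the mean, and a line between the 2 experiments. The 12 libraries after 300 g lie at 1.35% to 1.83%, below the CtrlA libraries at 3.63% to 3.96%, and the 5 hypg15 libraries lie at 6.27% to 8.76%, above the Ctrl libraries at 4.92% to 5.89%.

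To ask how each row changed under each condition, every group was compared with its own control by edgeR's quasi-likelihood test over all genes with enough counts, and a row was called at a Benjamini-Hochberg adjusted p under 0.05. Fold changes are log2 values of the first group over the control. The median over all genes tested lay between -0.02 and 0.02 in each of the 14 comparisons. Of the 6 genes, 4 passed the filter on low counts in every comparison, and RN7SL2 and RN7SK in none.

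After 20 s at 9 g none of the 4 rows was called, and their median log2 fold change was -0.13, where edgeR called 15.2% of all genes tested. RN7SL4P lay at 43.6 CPM in its lowest hypg20s library, number 16, with a median of 75.6 and a highest of 88.5 CPM, against 79.0, 84.9 and 89.3 CPM in Ctrl. The same library was lowest for RN7SL3 (19.9 CPM) and RN7SL5P (2.82 CPM). Without it RN7SL4P changed by a log2 fold change of -0.04 in place of -0.16.

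After 75 s, RN7SL3, RN7SL4P and RN7SL5P were downregulated by a similar amount, and RN7SL1 was not called (log2 fold change -0.06, SE 0.10). RN7SL4P read 54.6, 71.6 and 77.3 CPM (lowest, median and highest), below every Ctrl library, with a log2 fold change of -0.32 (SE 0.07, edgeR adjusted p = 0.00411). RN7SL3 read 22.6 to 25.7 CPM (median 24.6) against 26.0 to 29.7 CPM (median 28.0) in Ctrl, with a log2 fold change of -0.22 (SE 0.05, adjusted p = 0.00646). RN7SL5P read 3.79 to 4.83 CPM (median 4.73) against 4.85 to 5.71 CPM (median 5.49), with a log2 fold change of -0.27 (SE 0.07, adjusted p = 0.00812). None of the 3 overlapped Ctrl. Among all genes tested, 14.4% were called lower and 5.09% lay below Ctrl without overlap. None of the 3 calls was made with all 9 g groups in a single model or with 3 surrogate variables, and under the latter RN7SL4P turned to 0.44 (SE 0.18, adjusted p = 0.733).

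After 3 min none of the rows was called, in a comparison where 41.3% of all genes were. The median of the 4 rows was -0.08, and RN7SL5P came closest with a log2 fold change of -0.26 (SE 0.10, edgeR adjusted p = 0.0511). After 5 min RN7SL4P alone was called, at 64.3 to 74.6 CPM (median 70.5) and without overlap with Ctrl, with a log2 fold change of -0.29 (SE 0.06, adjusted p = 0.0109). At that time 1.69% of all genes were called lower and 1.19% lay below Ctrl without overlap. With all 9 g groups in a single model, or with 3 surrogate variables, this row was not called.

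After 7 min RN7SL4P fell furthest. It read 34.8, 44.7 and 75.4 CPM (lowest, median and highest), with libraries 31 and 32 at 75.4 and 65.6 CPM and the other 4 between 34.8 and 45.3 CPM. All 6 lay below Ctrl, and the log2 fold change was -0.77 (SE 0.17, edgeR adjusted p = 0.00954). RN7SL3 (17.6 to 28.5 CPM, median 20.7, log2 fold change -0.39, SE 0.12, adjusted p = 0.0451) and RN7SL5P (2.90 to 5.81 CPM, median 3.71, log2 fold change -0.49, SE 0.14, adjusted p = 0.0367) were called lower but overlapped Ctrl through library 31. RN7SL1 was at a log2 fold change of 0.01 (SE 0.12). In this comparison 6.19% of all genes were called lower and 2.3% lay below Ctrl without overlap. The 3 calls were not made with 3 surrogate variables.

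After 9 min the same 3 rows were called lower. RN7SL4P read 32.4 to 66.5 CPM (median 47.5), again below all Ctrl libraries, with a log2 fold change of -0.80 (SE 0.13, edgeR adjusted p = 0.000784). RN7SL3 read 17.5 to 25.3 CPM (median 20.4), also without overlap, with a log2 fold change of -0.43 (SE 0.09, adjusted p = 0.00334). RN7SL5P read 3.18 to 5.11 CPM (median 4.07) and overlapped Ctrl, with a log2 fold change of -0.46 (SE 0.11, adjusted p = 0.00773). RN7SL1 lay at 5.23% to 5.89% of the counts and had a log2 fold change of 0.01 (SE 0.08). Of all genes tested, 8.34% were called lower and 2.84% lay below Ctrl without overlap. Ranked by log2 fold change from the lowest, RN7SL4P was row 114 of 16438 at 7 min and row 117 of 16385 at 9 min, and RN7SL1 was row 8528 and row 8728. With 3 surrogate variables RN7SL5P was not called at 9 min (-1.76, SE 0.44, adjusted p = 0.0825), and RN7SL4P and RN7SL3 were called at -2.26 and -1.04, larger than the values above.

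After 15 min the direction was the opposite, and RN7SL1 and RN7SL3 were called higher. The hypg15 libraries, like those of hypg3, are numbered apart from Ctrl and the other 9 g groups. Exposure time and this separate numbering cannot be told apart. RN7SL1 had a log2 fold change of 0.39 (SE 0.13, edgeR adjusted p = 0.0196) and did not overlap Ctrl. RN7SL3 read 28.7, 31.6, 35.6, 29.2 and 35.3 CPM in libraries 76 to 80, overlapping Ctrl, with a log2 fold change of 0.22 (SE 0.08, adjusted p = 0.0243). RN7SL4P (85.0, 87.8, 100.3, 72.2 and 98.2 CPM, log2 fold change 0.10, adjusted p = 0.26) and RN7SL5P (5.88, 6.24, 6.84, 5.37 and 5.70 CPM, log2 fold change 0.18, adjusted p = 0.0792) were not called. At this time 25.4% of all genes were called higher and 13.7% lay above Ctrl without overlap. Without library 80 the log2 fold change of RN7SL1 was 0.29 (adjusted p = 0.108) and none of the rows was called. Without library 78, RN7SL3 was not called (log2 fold change 0.17, adjusted p = 0.0815). With 3 surrogate variables RN7SL1 turned to -0.090 and none was called, and with library 75 kept RN7SL1 was not called (0.37, adjusted p = 0.0553), while a single model or no filter left out the call of RN7SL3. The share of mitochondrial counts was also higher, at 2.29% ± 0.603 (SD, n = 5) against 1.49% ± 0.103 (n = 6) in Ctrl. From 20 s to 9 min its means ran from 1.62% (hypg20s) to 2.06% (hypg5), with 1.90% ± 0.160 at 75 s, 1.95% ± 0.109 at 7 min and 1.85% ± 0.149 at 9 min (n = 6 each). At 60 min it was 2.36% ± 0.249 against 1.29% ± 0.0951 in Ctrl60, and its part in the changes of the 7SL rows was not tested.

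After 60 min only RN7SL4P was called lower, at 39.1, 65.8 and 77.0 CPM (lowest, median and highest) against 73.9, 84.6 and 93.9 CPM in Ctrl60. The ranges overlapped, and the log2 fold change was -0.44 (SE 0.14, edgeR adjusted p = 0.0312), where 13% of all genes were called lower. RN7SL3 (14.7 to 29.5 CPM, median 24.2) had a log2 fold change of -0.28 (SE 0.14) and RN7SL1 of -0.04 (SE 0.16). Library 44 was lowest for all 4 rows, and without it RN7SL4P changed by -0.32 (adjusted p = 0.00428) and RN7SL1 by 0.06. With 3 surrogate variables RN7SL4P stood at -0.88, and RN7SL1 (-0.49, adjusted p = 0.0244) and RN7SL3 (-0.77, adjusted p = 0.0164) were called lower too, RN7SL3 also with all 9 g groups in a single model (-0.29, adjusted p = 0.0455). The controls at 60 and 15 min differed in none of the rows, with log2 fold changes of -0.02 to 0.03, and 0.0124% of all genes were called between them.

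**Figure D2:**
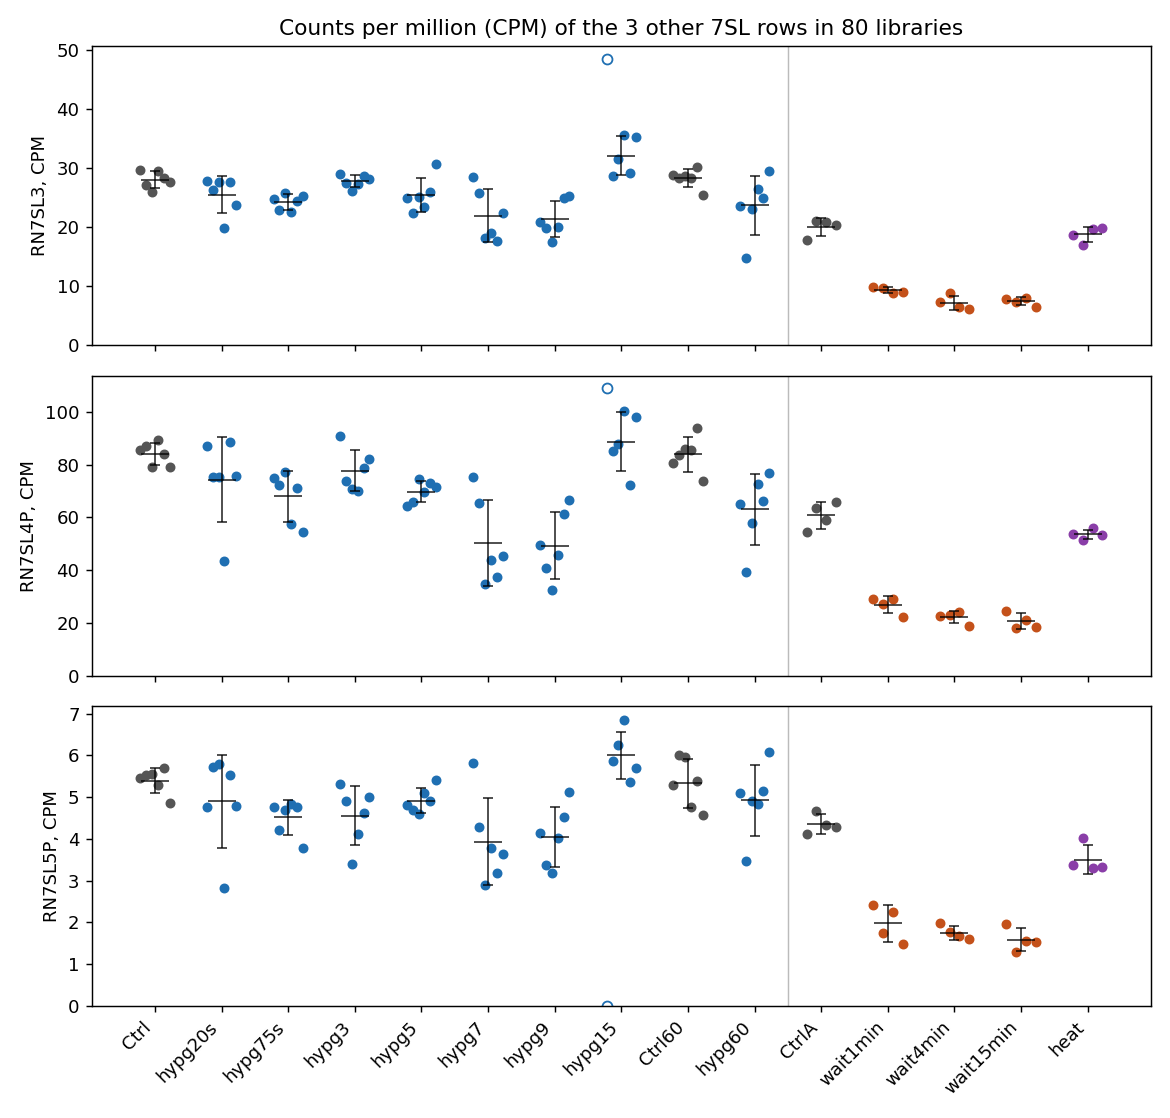
CPM of RN7SL3, RN7SL4P and RN7SL5P (y axes, from 0) in the libraries of the 15 groups (x axis), with mean and SD as bars and library 75 as an open circle outside them. RN7SL4P falls from a Ctrl mean of 84.0 CPM to 50.4 CPM at 7 min and 49.3 CPM at 9 min, and all 3 rows lie lowest after 300 g.

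At 1 min after the 300 g spin, all 4 rows were downregulated together, and none overlapped CtrlA. RN7SL3 fell from 17.8, 21.0, 20.8 and 20.5 CPM to 9.95, 9.65, 8.92 and 9.00 CPM. RN7SL4P fell from 54.5, 63.6, 59.1 and 65.9 CPM to 29.2, 27.2, 29.2 and 22.2 CPM. RN7SL5P fell from 4.11, 4.67, 4.34 and 4.28 CPM to 2.42, 1.75, 2.25 and 1.47 CPM, so that the highest spun library of each row stayed well below the lowest control. The log2 fold changes were -1.36 for RN7SL1 (SE 0.05, edgeR adjusted p = 4.8e-14), -1.34 for RN7SL3 (SE 0.07), -1.42 for RN7SL4P (SE 0.07) and -1.39 for RN7SL5P (SE 0.13). The largest of the 4 adjusted p-values was 1.82e-08, for RN7SL5P.

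At 4 min RN7SL3 read 7.30, 8.84, 6.57 and 6.09 CPM, RN7SL4P 22.4, 22.9, 24.1 and 18.8 CPM, and RN7SL5P 1.98, 1.76, 1.68 and 1.59 CPM. The log2 fold changes against CtrlA were -1.60 for RN7SL1 (SE 0.03), -1.74 for RN7SL3 (SE 0.09), -1.72 for RN7SL4P (SE 0.07) and -1.57 for RN7SL5P (SE 0.12), each with an edgeR adjusted p of at most 2.96e-11. At 15 min RN7SL3 read 7.86, 7.37, 8.10 and 6.52 CPM, RN7SL4P 24.7, 18.2, 21.2 and 18.6 CPM, and RN7SL5P 1.96, 1.29, 1.55 and 1.53 CPM. The log2 fold changes were -1.61 (SE 0.05), -1.68 (SE 0.08), -1.81 (SE 0.08) and -1.71 (SE 0.13) in the same order of genes, with adjusted p of at most 4.12e-10. The medians of the 4 rows were -1.38, -1.66 and -1.70 at the 3 waiting times.

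These calls came from comparisons in which a large part of all genes changed. Of all genes tested, 40.1% were called lower at 1 min, 40.6% at 4 min and 40.5% at 15 min, and 28.4%, 28% and 28.1% lay below CtrlA without overlap. A call with a log2 fold change under -1, which all 4 rows reached at each time, was made for 4.64%, 4.06% and 4.86% of all genes. Ranked from the lowest log2 fold change, the 4 rows stood between row 23 and row 78 of 17148 to 17175 genes. The calls of the 4 rows held at every alternative run and without each of the 8 libraries in turn. The summed CPM of the 10 T-lineage markers was also lower, at 3105 to 3333 in the 12 spun libraries against 4325 to 4381 in CtrlA, and its part in the change of the 7SL rows was not tested.

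Between 15 min and 1 min of waiting none of the 4 rows was called, with 0.149% of all genes called in either direction. RN7SL1 (log2 fold change -0.25, SE 0.05, edgeR adjusted p = 0.0512) and RN7SL3 (-0.34, SE 0.08, adjusted p = 0.148) were lower at 15 min in all 4 libraries without overlap, as 3.55% of all genes were. RN7SL1 was called without library 54 (log2 fold change -0.21, adjusted p = 0.0135). RN7SL4P, at a log2 fold change of -0.40 (SE 0.09, adjusted p = 0.106), was called without library 56 (-0.48, adjusted p = 0.0181) or library 61 (-0.50, adjusted p = 0.016). With all libraries in, at least 1 row was called without a filter, with total counts, with DESeq2, with a single model or with the GC correction.

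After heat shock RN7SL5P and RN7SL4P were downregulated slightly. RN7SL5P read 3.37, 4.01, 3.30 and 3.32 CPM, below all CtrlA libraries, with a log2 fold change of -0.34 (SE 0.10, edgeR adjusted p = 0.0216). RN7SL4P read 53.6, 51.4, 55.8 and 53.5 CPM and overlapped CtrlA, with a log2 fold change of -0.21 (SE 0.06, adjusted p = 0.0127). RN7SL3 (18.7, 17.0, 19.8 and 19.8 CPM) and RN7SL1 were not called, with log2 fold changes of -0.12 (SE 0.07) and -0.10 (SE 0.04). In this comparison 10.2% of all genes were called lower and 7.82% lay below CtrlA without overlap. The call of RN7SL5P was lost without library 50, 51, 65, 67 or 68, with adjusted p of 0.0525 to 0.0642, and with DESeq2 (adjusted p = 0.0568). RN7SL1 was called lower without a filter (-0.11, adjusted p = 0.000125) and with the whole experiment in a single model (-0.16, adjusted p = 0.00897).

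**Figure D3:**
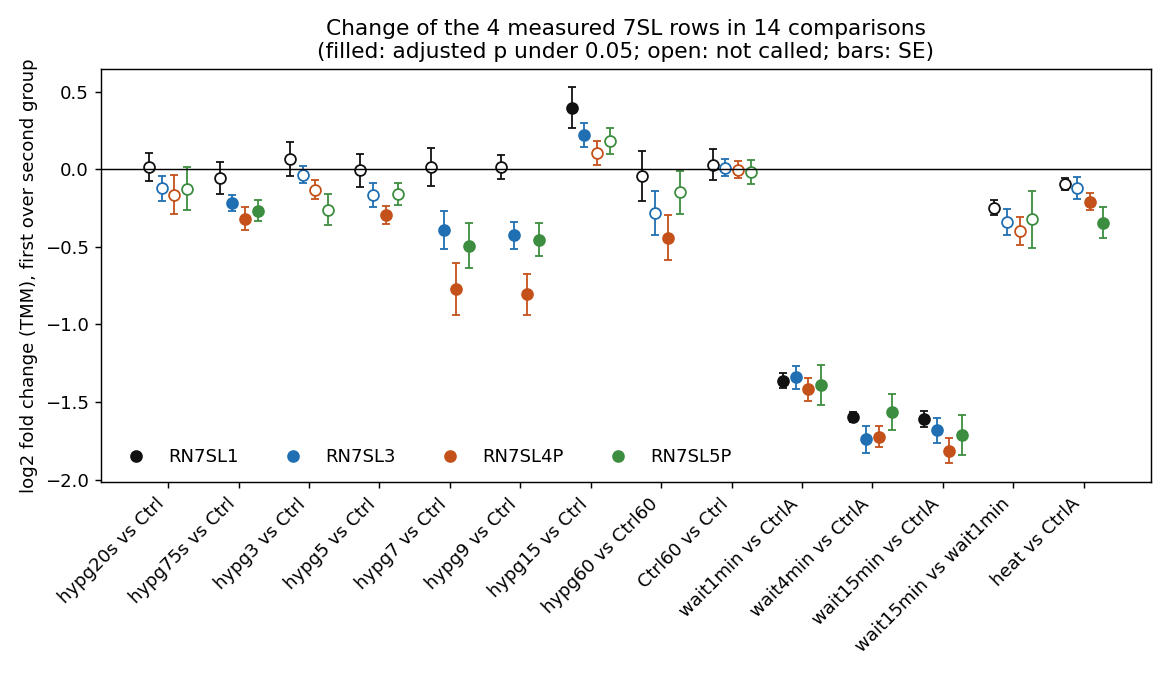
Log2 fold change (y axis) of RN7SL1, RN7SL3, RN7SL4P and RN7SL5P in the 14 comparisons (x axis), with SE bars, filled where the adjusted p was under 0.05. The 4 rows fall together by -1.34 to -1.81 after 300 g, whereas at 7 and 9 min of 9 g RN7SL4P lies near -0.8 and RN7SL1 near 0.01, and the calls of RN7SL1 and RN7SL3 as higher at 15 min are not made when GC content or exon length is corrected for.

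The 7SL rows are short and rich in GC, and both properties moved with some of these comparisons. Among the other genes with a GC content of at least 57%, the median log2 fold change was -0.64, -0.59 and -0.60 at the 3 waiting times, and the count-weighted GC content of the libraries fell from a mean of 52.3% in CtrlA to 49.0%, 49.2% and 49.2%. At hypg15 the same genes had a median of 0.23, and the other genes of up to 400 bases a median of 0.32. With a GC correction, which moved the median of all genes by 0.31, 0.30 and 0.30 at the waiting times, RN7SL1 lay at -0.75, -1.03 and -1.04 relative to that median, in place of -1.37, -1.61 and -1.62, and all 4 rows were still called lower. With scaling by total counts alone, the median of all genes was at 0.25, 0.27 and 0.27, and RN7SL1 lay at -1.37, -1.61 and -1.62 relative to it. With a length correction it lay at -1.42, -1.63 and -1.65. At hypg15 the corrections moved the median of all genes to -0.24 (GC) and -0.15 (length). RN7SL1 lay 0.38 above the median of all genes without a correction, 0.13 above it with the GC correction and 0.05 above it with the length correction, and was not called under either. RN7SL3, at -0.02 and -0.12 relative to the median, and RN7SL4P, at -0.10 and -0.24, were called lower in place of higher or not called, and so was RN7SL5P with the length correction. These calls are against 0 and not against the shifted median, and 8380 (GC) and 6438 (length) of all 15875 genes were then called lower, so they are not read as changes relative to other genes. At hypg3, where none of the rows was called, all 4 were called lower with either correction, as were 6913 and 5480 of all 16194 genes, RN7SL1 at -0.12 and -0.08 relative to the median and RN7SL5P at -0.40 and -0.41. At 9 min RN7SL4P lay at -0.80 relative to the median without a correction, at -0.88 with the GC correction and at -0.93 with the length correction. How far GC content or length set the changes of these rows was not tested beyond these values.

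**Figure D4:**
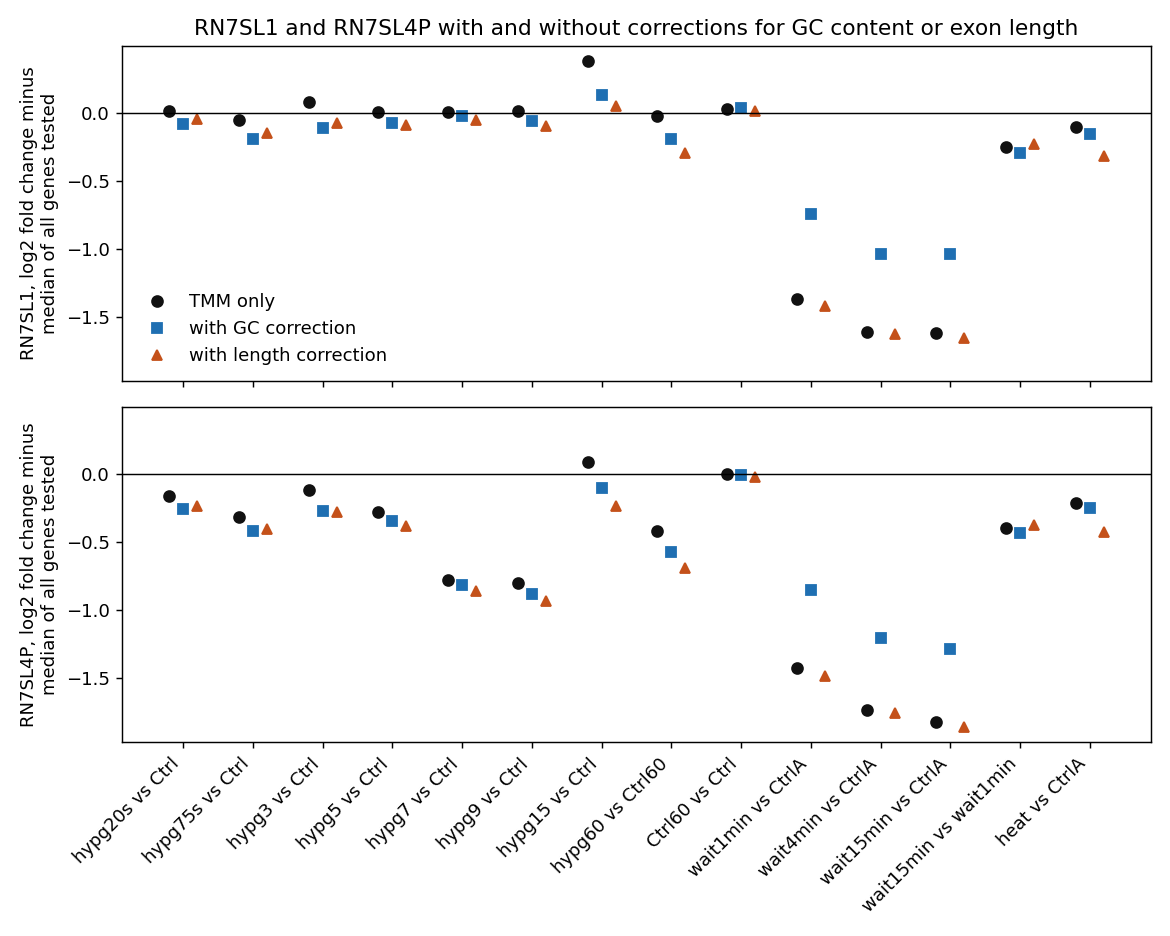
Log2 fold change of RN7SL1 (upper panel) and RN7SL4P (lower panel) minus the median of all genes tested (y axes), in the 14 comparisons (x axis), with TMM scaling only and with a correction for GC content or exon length. After 300 g RN7SL1 lies at -1.37 to -1.62 without a correction and at -0.75 to -1.04 with the GC correction, while at hypg15 it moves from 0.38 above the median to 0.13 and 0.05 above it.

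The ratio of RN7SL4P to RN7SL1 is given as a description, with no test, since it was picked after the separate values had been seen to diverge. RN7SL4P gave 1.34 to 1.66 counts per 1000 RN7SL1 counts in Ctrl (median 1.60), 0.655 to 1.23 at 7 min (median 0.774) and 0.606 to 1.14 at 9 min (median 0.855), with no overlap at either time. The mean log2 ratio differed from Ctrl by -0.85 and -0.86 at these times. After 60 min RN7SL4P gave 1.07 to 1.23 counts, below Ctrl60 at 1.45 to 1.65. At 20 s, 75 s, 3, 5 and 15 min the mean log2 ratio differed by -0.21, -0.27, -0.20, -0.29 and -0.29, with overlap at each time. After 300 g the differences from CtrlA were -0.06, -0.13 and -0.21, and all 3 groups overlapped CtrlA.

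How the rows moved from library to library differed between the experiments. Over the 59 libraries of the 9 g experiment without library 75, Pearson's r between log2 levels was 0.913 for RN7SL3 and RN7SL4P (0.868 within groups), 0.661 for RN7SL1 and RN7SL3 (0.764 within groups), and 0.406 for RN7SL1 and RN7SL4P (0.533 within groups). Pairs with RN7SL5P gave 0.461 with RN7SL1, 0.811 with RN7SL3 and 0.853 with RN7SL4P. Over the 20 libraries of the other experiment all 6 pairs lay between 0.935 and 0.986, and within groups between -0.05 and 0.718. These are descriptions over libraries that share their depth scaling and, between paralogs, part of their sequence. By the same measure at 9 g, the genes most like the summed 7SL rows among 8496 genes were H4C3 (r = 0.872), SNHG10 (0.856), NOC4L (0.855), BOP1 (0.854) and ALDH16A1 (0.851). No such list was possible for RN7SK, which was at 0.

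Since RN7SK and the gene that covers it held no count, the annotated 7SK pseudogenes were followed in their place, and whether their reads came from the pseudogenes or from 7SK RNA was not tested. Of 293 such rows, 149 held a count and 16 had a mean of at least 10 counts. Their sum read 73.4, 89.1 and 96.4 CPM in Ctrl (lowest, median and highest), 33.5, 44.0 and 81.0 CPM at 7 min, and 32.3, 45.4 and 72.3 CPM at 9 min. At 7 min the libraries 31 and 32, which were high for RN7SL4P, were also high for this sum, at 81.0 and 72.9 CPM against 33.5 to 47.4 CPM in the other 4. The sum was 46.0 to 78.7 CPM after 60 min (median 70.3) against 80.1 to 98.8 CPM in Ctrl60 (median 91.5). After 300 g it fell from a CtrlA mean of 71.9 ± 4.61 CPM (SD, n = 4) to 50.6 ± 6.47, 45.0 ± 4.86 and 42.2 ± 4.03 CPM at the 3 waiting times, without overlap, and heat lay at 71.1 ± 3.83 CPM.

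The 7SK pseudogene rows with the most counts were RN7SKP80, RN7SKP180 and RN7SKP203, with similar fold changes. RN7SKP80 fell from 26.6 ± 1.92 CPM (SD, n = 6) in Ctrl to 15.3 ± 6.82 CPM at 7 min (log2 fold change -0.83, SE 0.23, edgeR adjusted p = 0.0267) and to 14.5 ± 5.18 CPM at 9 min (-0.91, SE 0.17, adjusted p = 0.002). The log2 fold changes at 7 and 9 min were -0.86 and -0.92 for RN7SKP180 and -0.98 and -0.99 for RN7SKP203. After 300 g RN7SKP80 changed by -0.97, -1.22 and -1.43 at the 3 waiting times. Of all 7SK pseudogene rows tested, 6 of 15 were called lower and 0 higher at 7 min (median -0.45), and 8 of 14 lower and 1 higher at 9 min (median -0.72), where 6.19% and 8.34% of all genes were called lower. After 300 g 8 of 18, 8 of 18 and 8 of 19 were called lower and 5, 4 and 5 higher, with medians of -0.31, -0.32 and 0.04. The share called lower after 300 g was near that of all genes (40.1%, 40.6% and 40.5%), so it is no result about these rows.

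**Figure D5:**
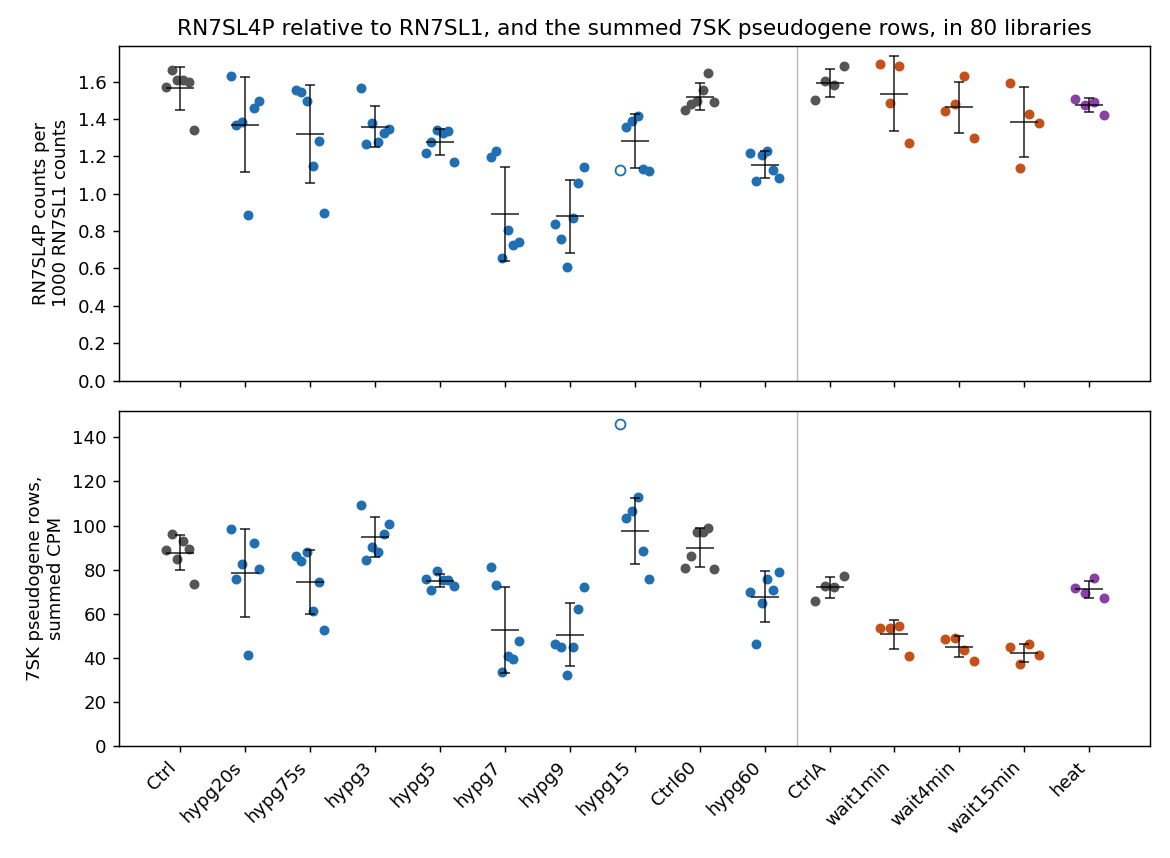
Upper panel, RN7SL4P counts per 1000 RN7SL1 counts, and lower panel, the summed CPM of the 7SK pseudogene rows (y axes, from 0), in the libraries of the 15 groups (x axis), with mean and SD as bars and library 75 as an open circle outside them. Both are lowest among the 9 g groups at 7 and 9 min, with libraries 31 and 32 of hypg7 above the other 4, and after 300 g the sum falls below CtrlA while the ratio overlaps it.

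The summed level of the 675 other 7SL pseudogene rows was higher after 300 g, where RN7SL1 was lower. Of these rows, 395 held a count and 38 had a mean of at least 10 counts. Their sum was 41.3 ± 1.75 CPM (SD, n = 4) in CtrlA and 76.4 ± 10.5, 77.2 ± 4.65 and 81.0 ± 9.73 CPM at the 3 waiting times, without overlap. CPM is scaled by total counts, under which the median of all genes also rose after 300 g, so the rise relative to other genes is smaller. Among those tested, 26 of 49, 27 of 54 and 30 of 53 were called higher and 4, 4 and 5 lower, with median log2 fold changes of 0.53, 0.57 and 0.59, where 41.4%, 41.7% and 41.8% of all genes were called higher. RN7SL535P rose by log2 fold changes of 0.53, 0.65 and 0.43, RN7SL809P by 0.61, 0.56 and 0.82, and RN7SL381P by 0.49, 0.49 and 0.45. At 7 and 9 min of 9 g, when RN7SL4P fell, 2 of 38 and 8 of 41 were called higher and 1 and 2 lower, against 6.64% and 11.3% of all genes called higher. At hypg15 11 of 31 were called higher and 0 lower (median 0.52), and at hypg60 11 of 36 higher and 1 lower (median 0.40), against 25.4% and 17.1% of all genes called higher.

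The genes that act with these RNAs were counted by list, and the counts are read against all genes tested. At 9 g 8.58%, 14.4%, 24.4%, 1.69%, 6.19%, 8.34%, 27.9% and 13% of all genes were called lower from 20 s to 60 min. Those called higher were 6.66%, 16.8%, 16.9%, 4.33%, 6.64%, 11.3%, 25.4% and 17.1%. After 300 g 40.1%, 40.6% and 40.5% were lower and 41.4%, 41.7% and 41.8% higher, and after heat 10.2% were lower and 10.6% higher.

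The protein partners of 7SL RNA were compared as a list of 8 genes for the SRP proteins and the SRP receptor. At 9 g, members of the list were downregulated at every time but 5 min. None was called higher in any of the 8 comparisons, and 3, 5, 6, 0, 4, 4, 5 and 5 were called lower from 20 s to 60 min, with medians of -0.14 to -0.65. SRP54, the GTPase subunit that binds signal peptides, was called lower in 7 of the 8, by log2 fold changes of -0.26 (9 min) to -0.77 (15 min), and read -0.32 without a call at 5 min. SRP14, which binds the Alu end of 7SL RNA with SRP9, was lower in 7 (-0.15 to -0.72), SRP72 in 6, and SRP9 in 5 (-1.06 at 15 min). At 15 min 5 of 8 compares with 27.9% of all genes and at 5 min 0 of 8 with 1.69%. After 300 g 4 of the 8 genes were higher at each time and 3, 3 and 4 lower, against 41.4% to 41.8% of all genes higher and 40.1% to 40.6% lower. SRP19, the subunit that SRP54 needs to join the particle, rose by 1.32, 1.30 and 1.27, SRP54 by 1.27, 1.21 and 1.18, and SRP9 by 1.19, 1.06 and 1.03. With heat SRP68 fell by 0.13 and SRPRB rose by 0.10.

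The 11 genes of the ER translocon, to which SRP delivers, were counted in the same way. At 9 g 4, 6, 7, 1, 1, 1, 7 and 4 were called lower, and 1 higher, at 15 min, where 7 of 11 lower compares with 27.9% of all genes and 1 of 11 at 5, 7 and 9 min with 1.69%, 6.19% and 8.34%. SEC61B, a channel subunit, was lower in 7 comparisons (-0.27 to -0.73 where called), TRAM1 in 5, and SEC62 and SSR1 in 4 each. After 300 g 6 were higher and 4, 5 and 5 lower, against 41.4%, 41.7% and 41.8% of all genes higher, and SEC62 rose by 2.61, 2.55 and 2.53, SEC63 by 1.82, 1.79 and 1.80 and TRAM1 by 1.42, 1.31 and 1.33. With heat SEC61A2 rose by 0.35 and SEC61B fell by 0.22.

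Of the 7 genes of the 7SK particle and P-TEFb, LARP7, the protein that shields the 3′ end of 7SK RNA, was lower at 9 g in 6 of 8 comparisons, by log2 fold changes of -0.41 (9 min) to -1.15 (15 min). HEXIM2, an inhibitor subunit, MEPCE, the capping enzyme of 7SK, and CDK9, the kinase, were higher in 5 comparisons each, by 0.14 to 0.41. The counts of the list were 4, 4, 3, 0, 0, 1, 3 and 2 higher and 2, 2, 3, 0, 0, 1, 3 and 1 lower, with medians of -0.13 to 0.16, against 6.66% of all genes higher and 8.58% lower at 20 s and 25.4% and 27.9% at 15 min. After 300 g 4 of the 7 genes were higher and 3 lower at each time, against 41.4% to 41.8% of all genes higher and 40.1% to 40.6% lower, with CCNT2 (1.89, 1.79 and 1.81) and LARP7 (1.64, 1.59 and 1.54) among the former and HEXIM2 (-1.03, -0.94 and -0.93) among the latter. No gene of this list was called after heat shock by edgeR.

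Among 10 factors of promoter-proximal pausing and release, 1 to 3 were called higher and 0 to 2 lower per comparison at 9 g. Over the same comparisons 4.33% to 25.4% of all genes were called higher and 1.69% to 27.9% lower. AFF4 was lower at 15 min (-0.47), SUPT4H1 lower at 7 min (-0.36) and NELFA higher at 15 min (0.13). For SUPT4H1, 63.7% of the exon length is shared with another gene on the same strand, where read pairs were not assigned. ELL2, an elongation factor of the super elongation complex, was called lower at 3, 5, 15 and 60 min but lay at group means under 1 CPM in the 9 g experiment. After 300 g 3 were higher and 7 lower at each time, with medians of -0.64, -0.58 and -0.59. Of all genes, 41.4% to 41.8% were higher and 40.1% to 40.6% lower. AFF4, a scaffold of the super elongation complex, rose by 1.35, 1.34 and 1.36, and the negative elongation factor subunits NELFE and NELFB fell, with means over the 3 times of -0.98 and -0.96. After heat 2 were called lower, AFF1 (-0.25) among them, against 10.2% of all genes.

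The 14 genes of the Pol III subunit list, 1 of which is the Pol III repressor MAF1, were called lower in 0, 2, 6, 1, 2, 2, 6 and 5 and higher in 1, 2, 2, 0, 0, 0, 3 and 1 cases at 9 g, and POLR1D was lower in 7 of the 8 comparisons (-0.17 to -0.30 where called). POLR1C was higher in 4, and POLR3G and POLR3B lower in 3 each. At 3, 15 and 60 min, 6, 6 and 5 of 14 lower compare with 24.4%, 27.9% and 13% of all genes. At 75 s, 7 min and 9 min, 2 of 14 lower compares with 14.4%, 6.19% and 8.34%. After 300 g 10 were lower and 4, 4 and 3 higher, against 40.1% to 40.6% of all genes lower and 41.4% to 41.8% higher. MAF1 stood at -1.14, -1.13 and -1.09, POLR3G at 2.13, 2.05 and 1.95 and POLR3F at 1.82, 1.76 and 1.71. After heat POLR3D fell by 0.22. Of the 19 initiation and maturation factors, GTF3C6 was lower (-0.20 to -0.59) and SNAPC4 higher (0.17 to 0.37) in all 8 comparisons at 9 g. SSB, the La protein that binds new Pol III transcripts, was lower in 6, down to -1.10 at 15 min, and GTF3A in 5. The list gave 3, 2, 4, 1, 2, 1, 4 and 2 higher and 3, 5, 6, 1, 2, 3, 11 and 3 lower calls at 9 g, 10, 11 and 9 higher and 8, 7 and 8 lower after 300 g, and 3 higher and 5 lower after heat. Of 19 genes, the 300 g counts compare with 41.4% to 41.8% higher and 40.1% to 40.6% lower among all genes, and 11 lower at 15 min compares with 27.9%. BDP1 (2.91, 2.81 and 2.79), SSB (2.09, 1.96 and 1.95) and POU2F1 (1.78, 1.74 and 1.78) rose most after 300 g, and with heat SNAPC5 rose by 0.49 while SSB (-0.32) and TBP (-0.30) fell. For SNAPC5, 23.5% of the exon length is shared with another gene on the same strand, where read pairs were not assigned.

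Other small RNAs made by Pol III were called lower in 5 of 10 tested at 7 min and 6 of 9 at 9 min, the highest counts among the 9 g times, where 6.19% and 8.34% of all genes were. Of 17 listed, 8 to 10 passed the filter in the comparisons with a control. At 9 g 1, 3, 3, 4, 5, 6, 1 and 4 were called lower, and medians reached -0.77 at 7 min and -1.02 at 9 min. RNY1, a Y RNA of the Ro particle, fell from 5.54 ± 0.757 CPM (SD, n = 6) in Ctrl to 2.08 ± 0.997 CPM at 7 min and 1.80 ± 0.489 CPM at 9 min (log2 fold changes -1.43 and -1.67). RNY4 changed by -2.15 and -2.25, RNY3 by -1.59 and -1.64, and RNU6ATAC, the U6atac RNA of the minor spliceosome, by -1.56 and -1.83. At hypg15 and hypg60, 3 and 1 of the list were called higher. After 300 g 7 of 9, 8 of 8 and 8 of 8 were lower and 0 higher, where 40.1%, 40.6% and 40.5% of all genes were lower, with medians of -0.64, -1.25 and -1.63, among them RNY4 (-1.36, -2.60 and -2.87), RNU6ATAC (-0.64, -1.48 and -1.80) and RNU6-8 (-0.77, -1.41 and -1.69). With heat RNU6-8 (1.40) and RNU6-2 (0.81), both U6 RNA genes, were higher and 0 were lower. Y RNAs and U6 RNAs are shorter than the 7SL rows, and the U6 genes have near-identical copies, so their counts are uncertain in the same way.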

How the data were processed

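Jurkat RNA was extracted with RNeasy Mini columns, depleted of ribosomal RNA, made into directional libraries and sequenced as paired ends. Per the submitters' processing notes, the authors trimmed reads with Trim Galore 0.6.5, aligned them to hg38 with STAR 2.7.3a and counted them with featureCounts 2.0.1 (the deposited file header names 2.0.3) against Ensembl release 104. The deposited table holds raw counts of read pairs per gene on the annotated strand, without multi-mapping pairs and pairs in more than 1 gene, and each gene's exon length in bases. It has 0 columns of other samples, and 1 gene whose record is broken was not used. Column names differ from the titles in Ctrl60 (control plus HEPES), wait1min (instant) and wait4min (1 min), and the titles were followed.

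The gene symbols, lists and tests were chosen with earlier results of these data known. Shares are counts over all counts of a library. Tests used edgeR 4.0.16 (quasi-likelihood, TMM factors, filterByExpr with a minimum count of 10, Benjamini-Hochberg over all genes tested), with the 2 groups compared in each fit, R 4.3.3, limma 3.58.1, checked on simulated counts. Alternatives were no filter, total counts, RLE factors, DESeq2 1.42.0, 1 model for each whole experiment, 3 surrogate variables (sva 3.50.0), lowess corrections for GC content or length (span 0.3), 7SL rows summed, library 75 kept and libraries left out in turn. GC content was known for 58336 genes from GENCODE 29 transcripts. Listed genes averaging 1 CPM or more were named by how many comparisons called them with 1 sign, then by size.

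The lists are the SRP proteins and receptor, ER translocon, 7SK particle and P-TEFb, pause and release factors, Pol III subunits, Pol III initiation factors, other Pol III RNAs, and markers of the T, B, myeloid and erythroid lineages. Some sequences and 1 gene named by the rule are not reported here.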

Additional observations from a re-analysis of the deposited data

Results flagged for a closer look

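Of 60 groups of 4 to 6 libraries tested for a library far from the others, 5 held one, and chance alone flags about 1 in 20 groups. RN7SL1 was at 4.95% in library 12 of Ctrl60, below the others at 5.49% to 5.74%. RN7SL3 was at 17.8 CPM in library 49 of CtrlA, below the others at 20.5 to 21.0 CPM. In library 16 of hypg20s both RN7SL4P (43.6 CPM, the others 75.4 to 88.5) and RN7SL5P (2.82 CPM, the others 4.77 to 5.79) stood low. RN7SL5P was at 4.01 CPM in library 66 of heat, above the others at 3.30 to 3.37 CPM.

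For RN7SL3, all 5 hypg15 libraries lay above the Ctrl mean, while all 6 libraries of hypg20s, of hypg75s and of hypg9 lay below it. The mean difference from Ctrl was larger at hypg15 than at hypg20s by 6.55 CPM, than at hypg75s by 7.79 CPM and than at hypg9 by 10.6 CPM, and these differences were not tested. The 4 groups share the same 6 Ctrl libraries.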

How the results depend on the processing

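The 300 g calls of the 4 rows and the 0 calls of Ctrl60 against Ctrl held under all alternatives run, and without each library in turn at 300 g, where 4 rows stayed called. Of the values of single rows and of the 7SL rows summed (14 values), 556 kept direction and side of the threshold, 48 became called, 24 lost the call and 34 changed sign. The cause of the changes below was not tested.

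With 3 surrogate variables the number of rows called became 2 at hypg20s, 0 at hypg75s, hypg5, hypg7 and hypg15, 2 at hypg9 (RN7SL5P lost) and 3 at hypg60. With a single model it was 0 at hypg75s and hypg5, 1 at hypg15, 2 at hypg60, 2 for wait15min against wait1min and 3 for heat (RN7SL1 gained). The GC and length corrections moved the median of all genes at 9 g by up to -0.24 and -0.15, both at hypg15, so the calls and signs under them, which are against 0, are not read as changes relative to other genes. They gave, all lower, 3 and 2 at hypg20s, 4 and 4 at hypg3, 3 and 3 at hypg5, 4 and 4 at hypg60, 4 and 4 for heat, and 2 and 3 at hypg15, and the GC correction 1 for wait15min against wait1min. Without a filter 1 was called at hypg15, 3 for heat (RN7SL1 gained) and 3 for wait15min against wait1min, where total counts gave 1 and DESeq2 2. DESeq2 gave 1 for heat (RN7SL5P lost), and with library 75 kept 1 was called at hypg15. Leaving out libraries in turn gave 0 to 3 at hypg15 (0 without 80, 1 without 78), 0 to 1 for wait15min against wait1min (1 without 54, 56 or 61) and 1 to 3 for heat (1 without 50, 51, 65 or 68).

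RN7SL1 took, under surrogate variables, GC and length corrections, -0.12, -0.18 and -0.11 at hypg20s, -0.060, -0.29 and -0.20 at hypg3, and -0.090, -0.11 and -0.10 at hypg15, where it stayed above the shifted medians by 0.13 and 0.05. At hypg5 it was 0.022 with total counts and 0.19 with surrogate variables. At hypg7 it was -0.0039 with DESeq2, -0.055 with surrogate variables, -0.042 with GC and -0.071 with length. At hypg9 it was -0.00023 with RLE factors, -0.0063 with DESeq2, -0.11 with GC and -0.14 with length. At hypg15 GC and length gave RN7SL3 -0.26 and -0.27, RN7SL4P -0.34 and -0.38 (-0.058 with surrogate variables) and RN7SL5P -0.25 and -0.30 (-0.083 with library 75 kept). RN7SL4P at hypg75s was 0.44 with surrogate variables. For Ctrl60 against Ctrl, RN7SL3 was -0.00010 with GC and -0.013 with length, and RN7SL4P 0.0018 in a single model and 0.0075 with surrogate variables. Chosen after seeing the data, leaving out library 16 gave RN7SL5P 0.0010 at hypg20s, and leaving out library 44 gave RN7SL1 0.065 at hypg60, and -0.047 without library 12 of Ctrl60. No paired analysis was possible because library numbers run through the whole series and no number occurs in more than 1 group.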
